A study of Sus scrofa with 6 samples.

Results

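The genes described here encode the proteasome, the enzymes that attach ubiquitin to proteins, the proteases that remove it, and the cullins and COP9 signalosome subunits that work with them. They were chosen by name: every probe set of the array whose annotation gives a single gene symbol starting with PSMA, PSMB, PSMC, PSMD, PSME, UBE2, UBE3, UCHL, COPS, CUL followed by a digit, or USP followed by a digit (with 1 USP gene left out by the rule). It gave 124 probe sets for 90 genes, out of 23999 probe sets and 6765 named genes, and 101 of the 124 had a mean log2 signal above the array's median of 4.93. Of these probe sets, 42 read 37 proteasome genes and 82 read 53 genes of ubiquitin conjugation, deubiquitination, the cullins and the COP9 signalosome.

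The 2 horns of the uterus of the same sow were set against each other. One oviduct of each Landrace x Large White crossbred sow received spermatozoa by laparoscopy and the other received diluent alone, so that on day 6 one horn held embryos at the blastocyst stage (embryo horn) and the contralateral horn held unfertilised oocytes (oocyte horn). Mucosal epithelium was scraped from the first 10 cm of each horn next to the oviduct, and each scraping of 3 sows was hybridised to 1 Affymetrix porcine array, 3 arrays per group and 6 in all. Both horns share the sow, its anaesthesia and its surgery, and they differ in the insemination itself as well as in the embryos. Horns with the same replicate number were taken as horns of 1 sow.

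Ubiquitin is a small protein that is activated by an E1 enzyme, passed to an E2 enzyme (the UBE2 family) and joined to a target protein with the help of an E3 ligase, of which the UBE3 proteins and the cullin complexes are examples. Proteins that carry chains of ubiquitin are recognised by the cap of the proteasome, unfolded and cut inside its barrel, and deubiquitinating proteases (the USP and UCHL families) trim or recycle the chains. In the uterus, as in other tissues, the system turns over short-lived regulators such as steroid receptors and cell cycle proteins, and in cells that present antigen an inducible form of the barrel makes peptides for class I molecules.

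The signals are array intensities in arbitrary units, scaled to the same trimmed mean of 100.02 on every array, and a level can be compared between horns but not between probe sets. Differences are log2 values of embryo over oocyte horns from a limma fit over all 23999 probe sets after cyclic loess normalization, with their 95% intervals. That fit has no sow term, so its intervals include the spread between sows, except where the sow is named as a block. The epithelial markers KRT8, KRT18, KRT19, CDH1 and EPCAM were above the array's median at all 7 of their probe sets, and their signals summed to 7556 to 10341 in embryo horns and 7806 to 10210 in oocyte horns. Signal of stromal and smooth muscle genes was present too. Stromal genes had 4 of 7 probe sets above the median (sums of 3244 to 6591 in embryo horns and 3332 to 7057 in oocyte horns). Smooth muscle genes had 2 of 5 (572 to 1370 in embryo horns and 462 to 2141 in oocyte horns). The 9 leukocyte genes were mostly dim, with 1 of 13 probe sets above the median. They summed to 182 to 266 in embryo horns and 168 to 276 in oocyte horns. In such bulk samples, fewer cells of a type and less RNA per cell cannot be told apart. A measure of RNA quality differed in the same direction in every sow. The GAPDH and actin control probe sets at the 5' end, over those at the 3' end, had a mean log2 ratio of -2.91 ± 0.57 in embryo horns and -2.41 ± 0.5 in oocyte horns (SD, n = 3 each). The ratio was lower in the embryo horn of all 3 sows (by -0.55, -0.74 and -0.185). An exact permutation test of 3 arrays against 3 gave p = 0.4, two-sided, and cannot go below 0.1. The test ignores which horns share a sow, so the spread between sows enters that p. The part of this RNA quality measure in the differences below was not tested.

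Across the whole set, differences between the horns were small and none passed the test. None of the 124 probe sets had an adjusted p under 0.05 (limma with Benjamini-Hochberg adjustment, smallest adjusted p = 1; background 0% of all probe sets). At an unadjusted p under 0.05, 0 probe sets were higher in embryo horns (background 1.3%) and 1 was lower (background 1.59%), a dim probe set of UBE3D. The median log2 difference was -0.02, with quartiles of -0.139 and 0.064, against a median of 0.005 with quartiles of -0.205 and 0.199 over all 23999 probe sets. The members are bright as a group, and among probe sets above the array's median the quartiles were -0.099 and 0.053 for the members and -0.109 and 0.115 for all. Of the 124 members, 69 (55.6%) lay below 0, where 49.2% of all probe sets did. Among the 101 brighter members, 96 had a 95% interval that lay within 2-fold either way, and 74 had one within 1.5-fold.

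The direction within sows was less even. In 33 of the 124 probe sets (26.6%) the embryo horn was the lower one in all 3 sows, against a background of 14.8%, and in 13 (10.5%) it was the higher one in all 3, against a background of 14.9%. The 33 probe sets read 29 genes and the 13 read 13 genes, with 0 genes in both. Among the 101 brighter members the counts were 27 lower (26.7%; background 16.5%) and 12 higher (11.9%; background 16.5%). The median difference of the 124 members was -0.043, -0.035 and -0.027 in sows 1, 2 and 3, against -0.004, 0.006 and 0.003 over all probe sets. Among the 101 brighter members it was smaller, at -0.026, -0.011 and -0.024, against -0.004, 0.004 and 0.008 over all brighter probe sets. Members of 1 complex, and probe sets of 1 gene, are read on the same 6 arrays and are not replicates of each other. After normalization, the ranges of the 2 groups did not overlap for 6 members with embryo horns above (background 4.03%) and 9 with embryo horns below (background 3.98%).

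**Figure D1:**
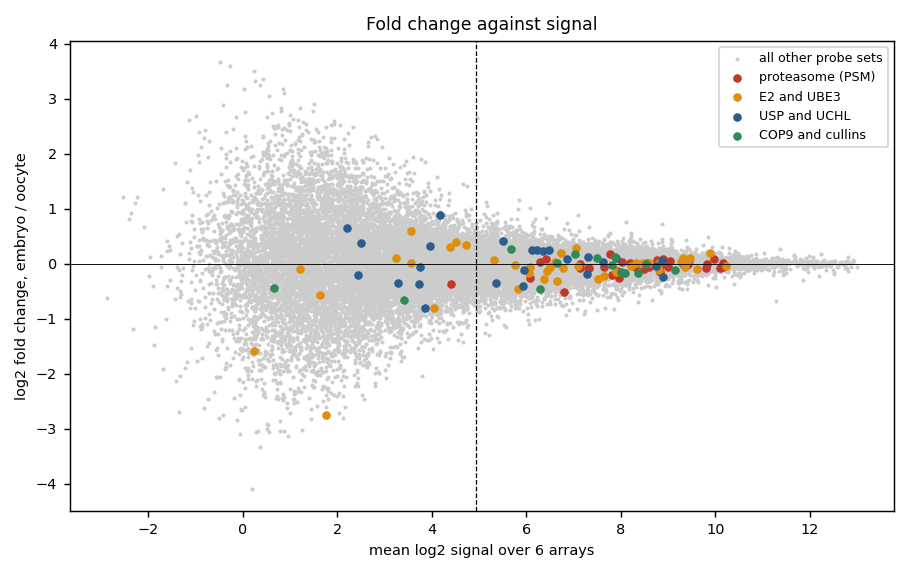
Each point is 1 probe set, with its mean log2 signal over the 6 arrays on the x axis and its log2 fold change, embryo over oocyte horns, on the y axis; the dashed line marks the array's median signal of 4.93. Colours mark proteasome, E2 and UBE3, USP and UCHL, and COP9 and cullin probe sets among all others in grey. Member probe sets right of the line stayed between -0.51 and 0.42, and the wide differences, such as -2.76 for UBE3D, lie among the dim probe sets on the left.

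The barrel of the proteasome, the 20S core, had signals close to each other in the 2 horns. Its 16 probe sets, 1 for each of 16 genes, had a median log2 difference of 0.016 and a range of -0.077 to 0.175, with 10 above 0 and 6 below. The embryo horn was higher in all 3 sows at 3 of them (background 14.9% of all probe sets) and lower in all 3 at 2 (background 14.8%). All 16 lay above the array's median, where each background was 16.5%. Of the 16, 14 had a 95% interval within 1.5-fold either way. PSMA1 to PSMA7 form the outer alpha rings, which gate the entrance to the barrel, and their median was 0.002 (-0.015 to 0.066 with each array left out in turn). PSMA5 had signals of 228.3, 223.4 and 251.8 in the embryo horns of sows 1, 2 and 3, against 215.9, 197.7 and 207.1 in their oocyte horns. It was higher in every embryo horn and the ranges did not overlap, but the difference of 0.175 (95% interval -0.114 to 0.464) did not pass the test. PSMA2 had 981.4, 1080.5 and 1131.8 in embryo horns and 988.9, 1208.6 and 1182.6 in oocyte horns, lower in each embryo horn with overlapping ranges and a difference of -0.077 (-0.338 to 0.184).

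The inner beta rings carry the protease sites, and the 7 standard beta subunits had a median of 0.019 and a range of -0.028 to 0.089. That median took either sign when single arrays were left out, from -0.018 without the oocyte horn of sow 2 to 0.057 without the embryo horn of sow 2, and it was -0.004 and -0.008 without the embryo horns of sows 1 and 3. PSMB5, the chymotrypsin-like site, averaged 534 ± 42.8 in embryo horns and 514 ± 56 in oocyte horns (SD, n = 3 each), a difference of 0.055 (-0.231 to 0.341). PSMB6, the caspase-like site, averaged 489 ± 39.1 in embryo horns and 489 ± 3.91 in oocyte horns, and PSMB7, the trypsin-like site, averaged 699 ± 69.9 in embryo horns and 667 ± 16.3 in oocyte horns. These sites differed by -0.008 (-0.267 to 0.251) for PSMB6 and 0.063 (-0.19 to 0.315) for PSMB7, with overlapping ranges for both. PSMB1, a beta subunit without a protease site of its own, averaged 664 ± 37.4 in embryo horns and 676 ± 35.7 in oocyte horns, a difference of -0.028 (-0.284 to 0.229).

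Inducible subunits replace the standard sites in the immunoproteasome, a form made in immune cells and after interferon. PSMB8, the inducible partner of PSMB5, had signals of 105.8, 300.2 and 124.8 in the embryo horns of sows 1, 2 and 3, against 129.1, 314.8 and 112 in their oocyte horns. Both horns of sow 2 were well above all the others, while the horns of 1 sow differed by at most 0.302 on the log2 scale and in both directions. The difference between the groups was -0.072 (-1.14 to 0.997), with the widest interval among the proteasome probe sets above the array's median, and with the sow as a block it was -0.072 (-0.326 to 0.183). The sows themselves spanned 1.39 on the log2 scale. The summed signal of the 13 leukocyte probe sets was also highest in sow 2, at 266 in the embryo horn and 276 in the oocyte horn, but its genes did not share 1 pattern. CD8A, the 1 probe set above the array's median, was highest in both horns of that sow (68.8 in the embryo horn and 51.2 in the oocyte horn), whereas CD3D had 19.5 in its embryo horn, the lowest of the 6 arrays, and 42.7 in its oocyte horn, the highest of them. Their part in the PSMB8 signals was not tested. PSMB10, the inducible partner of PSMB7, had 81.9, 99.4 and 62.9 in embryo horns and 91.1, 75.5 and 69 in oocyte horns, a difference of 0.032 (-0.479 to 0.542) with overlapping ranges and no common direction. The third inducible subunit, PSMB9, was not analysed here.

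The activators cap the barrel in place of the 19S particle and open it without ubiquitin. PSME1 and PSME2, the PA28 subunits that work with the immunoproteasome, were higher in the embryo horn of all 3 sows by small amounts. PSME2 had 480.3, 509.1 and 471.3 in embryo horns and 454.7, 450.3 and 471.2 in oocyte horns, so the ranges met without overlap, and the difference was 0.083 (-0.159 to 0.324). PSME1 averaged 703 ± 69.5 in embryo horns and 680 ± 73.4 in oocyte horns, a difference of 0.048 (-0.234 to 0.33). PSME3, the nuclear PA28 subunit, had 77.3, 56.8 and 56.7 in embryo horns, against 117.9, 57.6 and 62.6 in oocyte horns. Its difference of -0.262 (-0.914 to 0.39) rested on the oocyte horn of sow 1, and without that array it was 0.05.

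**Figure D2:**
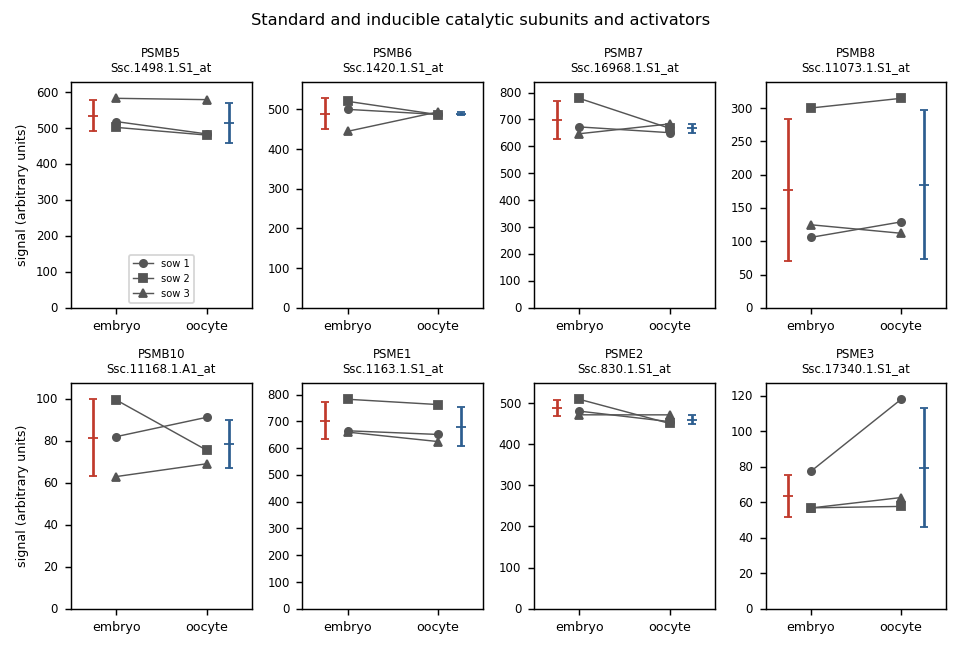
Signals (arbitrary units, linear axis from 0) of the standard catalytic subunits PSMB5, PSMB6 and PSMB7, the inducible subunits PSMB8 and PSMB10 and the activators PSME1, PSME2 and PSME3, with embryo horns left and oocyte horns right in each panel. Lines join the horns of a sow and the bars beside them are mean ± SD of 3 arrays. For PSMB8, both horns of sow 2 (300.2 and 314.8) lie above the other 4 arrays (105.8 to 129.1).

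The 19S cap, which binds ubiquitin chains and unfolds the protein, leaned lower in embryo horns. Of its 22 probe sets for 17 genes, 17 lay below 0 and 5 above, with a median of -0.059 and a range of -0.514 to 0.042. The embryo horn was lower in all 3 sows at 8 probe sets and higher in all 3 at 0, against the backgrounds of 14.8% and 14.9% of all probe sets. Of the 22, 21 lay above the array's median, where each background was 16.5%. PSMC2 and PSMD11 each gave 2 of the 8. Some of the 8 were nearly level, such as PSMD8 (-0.024, -0.007 and -0.008 in sows 1, 2 and 3). The median was below 0 in each sow (-0.081, -0.042 and -0.06). With sow 1, 2 or 3 left out, 16, 17 or 18 of the 22 lay below 0. These shifts were small: in the fit without a sow term, 18 of the 22 intervals lay within 1.5-fold either way and each of the 22 held 0. With the sow as a block, the intervals of 1 probe set of PSMD11 (-0.774 to -0.254) and 1 of PSMD1 (-0.48 to -0.024) left out 0, and 0 passed after adjustment. Whether the 19S differences stand apart from those of the 20S core was not tested.

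The base of the cap holds a ring of ATPases, the PSMC proteins, which pull the substrate into the barrel. Their 7 probe sets for 5 genes had a median of -0.085, with 1 above 0. The size of that median depended on single arrays: it was -0.165 without the embryo horn of sow 1 and -0.148 without the oocyte horn of sow 2, but -0.053 and -0.021 without the embryo horns of sows 3 and 2 and 0 without the oocyte horn of sow 1. PSMC2 was read by 3 probe sets with differences of -0.212, -0.092 and -0.06, and at the first of them it had 255.1, 192.1 and 193.5 in embryo horns against 270.9, 213.1 and 252.7 in oocyte horns. The embryo horn was the lower one in each sow there, the ranges overlapped, and the difference was -0.361 without the embryo horn of sow 1 and -0.122 without the oocyte horn of sow 1. PSMC5 averaged 476 ± 33.2 in embryo horns and 467 ± 45 in oocyte horns, a difference of 0.026 (-0.277 to 0.329) and the only positive one of the ATPases.

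The PSMD proteins are the non-ATPase subunits: scaffolds, ubiquitin receptors and the deubiquitinase PSMD14. Their 15 probe sets for 12 genes had a median of -0.026, with 4 above 0 and 11 below, and 6 were lower in the embryo horn of all 3 sows (background 14.8%). Of the 14 above the array's median, 5 were lower in all 3 (background 16.5%). Without single arrays the median difference of the 15 ran from -0.077 (without the embryo horn of sow 1) to -0.025. It was -0.061 without the embryo horn of sow 2 and -0.055 without the oocyte horn of sow 3. PSMD11, a scaffold of the lid that touches the alpha ring, was read by 3 probe sets that did not give 1 answer. At the one of middle brightness it had 145.3, 70.1 and 83.2 in the embryo horns of sows 1, 2 and 3, against 188.1, 110.5 and 117.5 in their oocyte horns. Each embryo horn was well below the oocyte horn of the same sow, by -0.389, -0.646 and -0.507, yet sow 1 was high in both horns and the ranges overlapped. The difference was -0.514 (-1.211 to 0.183), and with the sow as a block its interval was -0.774 to -0.254, with an adjusted p of 0.272, the smallest of all members in the blocked limma fit. Without the embryo horn of sow 1 the unblocked difference was -0.82, and without the oocyte horn of sow 1 it was -0.272. Several other measures were also extreme in both horns of sow 1. The summed smooth muscle markers were highest there (1370 in the embryo horn and 2141 in the oocyte horn), as were the stromal markers (6591 and 7057). The log2 5'/3' control ratio was highest there too (-2.395 and -1.844), and the summed epithelial markers were lowest (7556 and 7806). The part of these measures was not tested.

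The brightest probe set of PSMD11 had 524.9, 433.2 and 410.6 in embryo horns and 480.7, 413 and 428.7 in oocyte horns. It was higher in the embryo horns of sows 1 and 2 and lower in that of sow 3, a difference of 0.042 (-0.289 to 0.373). The dimmest lay below the array's median and was lower in all 3 embryo horns, with a difference of -0.362 (-1.264 to 0.541). PSMD1, the large scaffold of the base, split in a like way. At the dimmer of its probe sets it had 252.5, 194.3 and 244.7 in embryo horns and 318.1, 255.8 and 246.7 in oocyte horns, a difference of -0.252 (-0.639 to 0.136) that came from sows 1 and 2 (-0.122 without the oocyte horn of sow 1), and at the brighter one the difference was -0.002.

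**Figure D3:**
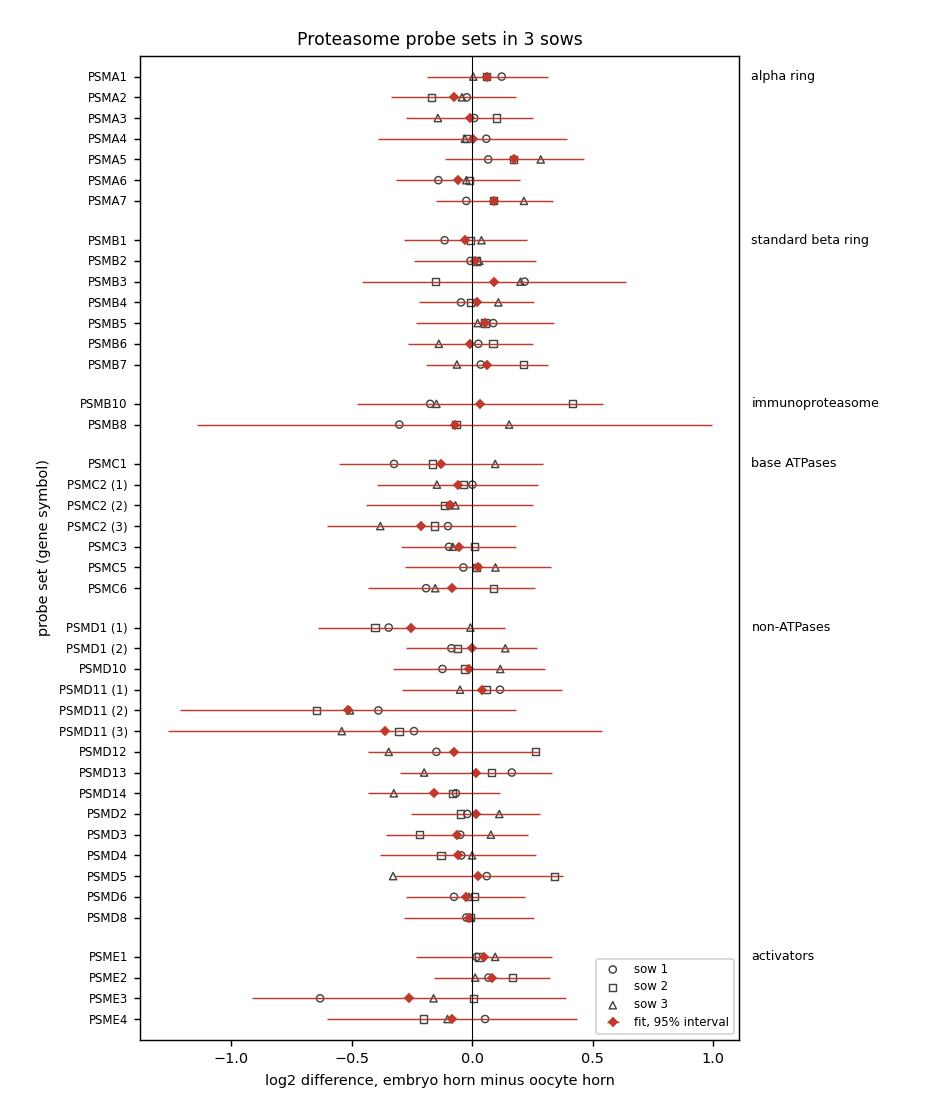
Log2 difference, embryo minus oocyte horn, of the 42 proteasome probe sets, ordered by the part of the complex they read; open symbols are the 3 sows and red diamonds with lines are the fitted difference and its 95% interval. Probe sets of 1 gene are numbered in the order of their identifiers. The alpha and standard beta rings lie close to 0 (-0.077 to 0.175), and most of the ATPases and non-ATPases lie left of 0. Every interval holds 0, in a fit without a sow term. With the sow as a block, the intervals of 1 probe set of PSMD11 (-0.774 to -0.254) and 1 of PSMD1 (-0.48 to -0.024) leave out 0.

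Among the E2 enzymes, 40 probe sets for 24 genes, the median was -0.045. The embryo horn was lower in all 3 sows at 12 probe sets (background 14.8%) and higher in all 3 at 1 (background 14.9%). Of the 31 above the array's median, 10 were lower and 1 was higher in all 3 (background 16.5% each). The median difference of the 40 stayed below 0 without any single array. It ran from -0.073 without the embryo horn of sow 1 to -0.02 without the oocyte horn of sow 1 and -0.008 without the embryo horn of sow 2. UBE2M, which charges cullins with the ubiquitin-like protein NEDD8, had 94.8, 82 and 99.7 in embryo horns and 132.9, 100.1 and 109.6 in oocyte horns. Every embryo horn lay below every oocyte horn, and the difference was -0.309 (-0.702 to 0.085). UBE2W, which joins ubiquitin to the start of proteins, had 71.9, 79.2 and 79.6 in embryo horns and 86.3, 89.3 and 105 in oocyte horns, again without overlap, and a difference of -0.284 (-0.669 to 0.102). UBE2F, the second E2 enzyme for NEDD8, differed by -0.138 and was lower in the embryo horn of all 3 sows after normalization, and UBE2K, which builds degradation chains, differed by -0.221 (-0.591 to 0.149) and was also lower in all 3.

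UBE2O, a large enzyme with both E2 and E3 activity, was the 1 E2 probe set higher in the embryo horn of all 3 sows. It had 110.6, 175.8 and 167 in embryo horns and 101.5, 133.2 and 130.2 in oocyte horns, a difference of 0.289 (-0.195 to 0.774) with overlapping ranges. Its sow 1 was low in both horns, and the blocked limma fit gave an interval of 0.039 to 0.54 and an adjusted p of 0.505.

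Several E2 genes gave different answers at different probe sets. UBE2D2, a general E2 enzyme that serves many ligases, differed by -0.099 (-0.476 to 0.278) at its dimmest probe set, by -0.034 (-0.287 to 0.218) at its brightest and by 0.202 (-0.105 to 0.51) at the third. At the dimmest it had 873.7, 621.9 and 808.3 in embryo horns and 893, 722.4 and 836.6 in oocyte horns, lower in each sow. At the third it had 1144.8, 1061.6 and 862.3 in embryo horns against 926.6, 844.4 and 881.1 in oocyte horns, higher in sows 1 and 2 and level in sow 3. UBE2V1, a catalytically inactive partner of UBE2N in making signalling chains, ranged over its 3 probe sets from -0.455 to 0.053. At the lowest of these it had 62.8, 52.4 and 38.5 in embryo horns and 96.8, 46.9 and 71.1 in oocyte horns, lower in sows 1 and 3 and higher in sow 2, and the difference was -0.718 without the oocyte horn of sow 2 and -0.223 without that of sow 1. UBE2N itself differed by -0.062, without overlap of the groups after normalization. UBE2H differed by -0.146 (-0.498 to 0.205) at its dimmer probe set, lower in all 3 embryo horns, and by -0.044 (-0.337 to 0.25) at the brighter one.

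The UBE3 ligases were UBE3A, whose loss in neurons causes Angelman syndrome in humans, and UBE3D. UBE3A had 696.3, 771.4 and 717 in embryo horns and 676.9, 660.5 and 706.4 in oocyte horns, ranges that overlapped in the deposited signals but not after normalization, with a difference of 0.095 (-0.141 to 0.33). The dimmer of the 2 probe sets of UBE3D had 4.7, 0.9 and 0.9 in embryo horns against 19.4, 5.5 and 10.4 in oocyte horns, a difference of -2.76 (-4.588 to -0.928; limma adjusted p = 1). Both probe sets of UBE3D lay below the array's median, and the other one had 16.8, 21 and 14.8 in embryo horns against 5.1, 12.8 and 22.2 in oocyte horns, a difference in the opposite direction of 0.598 (-0.753 to 1.95).

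Cullins are the scaffolds of the largest family of E3 ligases, and NEDD8 on the cullin switches the ligase on. CUL1, the scaffold of the SCF ligases, had 252.6, 212.8 and 278 in embryo horns and 257.3, 263.4 and 293.8 in oocyte horns, lower in each sow with overlapping ranges and a difference of -0.143 (-0.469 to 0.184). Sow 2 weighed most in it: without the embryo horn of sow 2 it was -0.028, and without that of sow 3 it was -0.225. CUL4A, the scaffold that binds DDB1, had 138.3, 151.7 and 132 in embryo horns and 92.8, 159.8 and 127.4 in oocyte horns. Its difference of 0.179 (-0.294 to 0.651) came from the low oocyte horn of sow 1, and without that array it was -0.0197.

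The COP9 signalosome removes NEDD8 from cullins. Its 10 probe sets for 7 genes had a median of -0.072, and the 9 above the array's median had one of -0.022. Of the 10, 3 were lower (background 14.8%) and 1 was higher (background 14.9%) in the embryo horn of all 3 sows, and the lower ones read COPS4 and COPS5. Above the array's median, where 9 of the 10 lay, each background was 16.5%. COPS5, the subunit that cuts NEDD8 off, was lower in all 3 sows at both of its probe sets. The dimmer one had been selected for its change on these same arrays in the original study, so its direction is no independent evidence. At the brighter one it had 306.4, 323.7 and 303.1 in embryo horns and 358.6, 334.4 and 355.9 in oocyte horns, without overlap, and a difference of -0.173 (-0.433 to 0.088). At the dimmer one it had 74.1, 60.6 and 70.7 in embryo horns and 117.2, 67.2 and 102.3 in oocyte horns. There sow 2 differed least, the ranges overlapped, and the difference was -0.453 (-0.974 to 0.068; with the sow as a block -0.79 to -0.115, limma adjusted p = 0.46). Without the oocyte horn of sow 2 it was -0.681, and without that of sow 1 it was -0.294. COPS2, a scaffold subunit, went both ways: at its dimmer probe set it had 60.6, 60.4 and 54 in embryo horns and 47.8, 47.6 and 50.1 in oocyte horns, every embryo horn above every oocyte horn (0.26, -0.173 to 0.693), and at the brighter one it differed by -0.17.

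**Figure D4:**
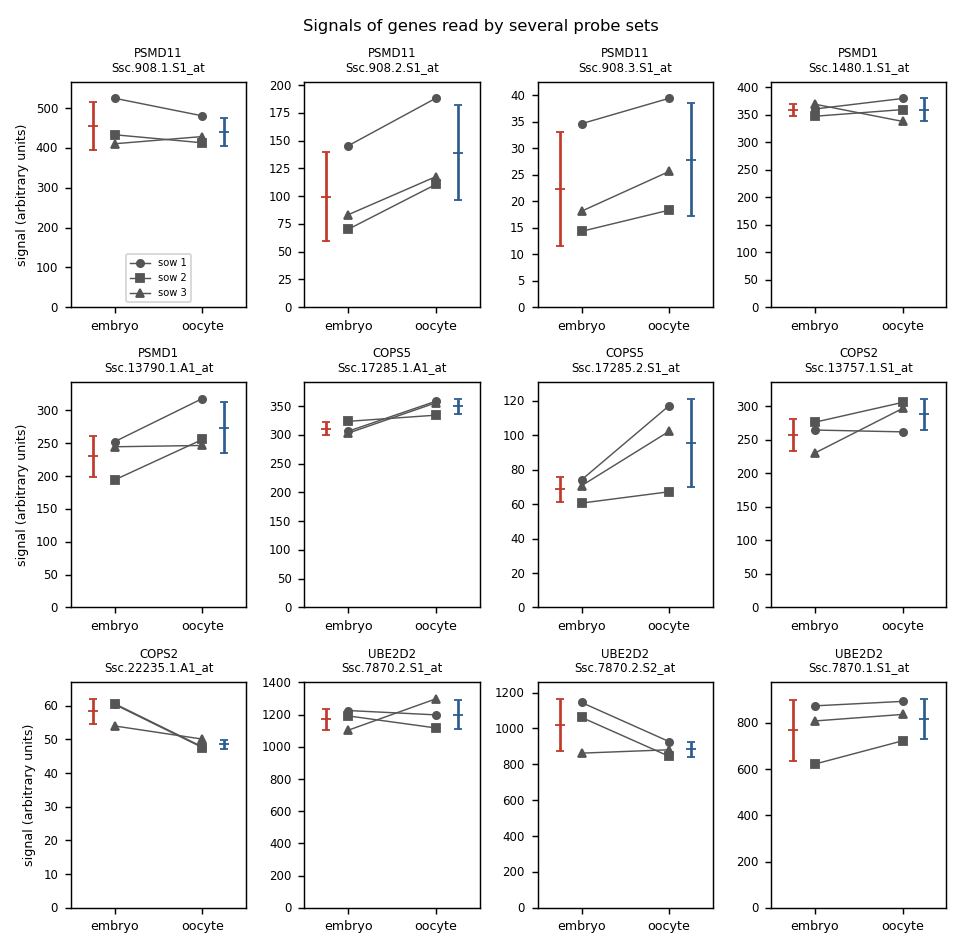
Signals (arbitrary units, linear axis from 0) at each probe set of PSMD11, PSMD1, COPS5, COPS2 and UBE2D2, with embryo horns left and oocyte horns right, probe sets of a gene from the brightest to the dimmest, lines joining the horns of a sow, and mean ± SD of 3 arrays beside them. Both COPS5 probe sets were lower in the embryo horn of every sow, but the dimmer one had been selected for its change on these arrays. For PSMD11, COPS2 and UBE2D2 the probe sets of 1 gene differ in direction.

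The USP deubiquitinases, 23 probe sets for 15 genes, had a median of 0.046, with 13 above 0 and 10 below. The sign of the median rested on single arrays: it was -0.024 without the oocyte horn of sow 1, -0.014 without the embryo horn of sow 3, 0.014 without that of sow 2 and 0.107 without that of sow 1. USP9X, a protease that spares many signalling proteins from degradation, had 455.7, 404.3 and 457.8 in embryo horns and 558, 486.4 and 505.1 in oocyte horns. Every embryo horn lay below every oocyte horn, and the difference was -0.236 (-0.523 to 0.051; with the sow as a block -0.411 to -0.062, limma adjusted p = 0.46). USP8, which acts on receptors at endosomes, differed by -0.182, also without overlap.

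Other USP genes lay on the opposite side. USP10 had 84.9, 89.5 and 97.2 in embryo horns and 77.9, 79.1 and 73 in oocyte horns at one probe set, without overlap (0.234, -0.134 to 0.601), while its brighter probe set differed by -0.044. USP5, which takes apart free ubiquitin chains, had 102.3, 112.1 and 83.7 in embryo horns and 80.1, 98 and 70.8 in oocyte horns, higher in each sow (0.258, -0.199 to 0.714). USP11 was also higher in the embryo horn of all 3 sows, with 84.6 ± 14 in embryo horns and 70.7 ± 9.53 in oocyte horns (SD, n = 3 each; 0.249, -0.195 to 0.693). USP28, a nuclear protease that stabilises MYC, had 38.8, 71 and 58.6 in embryo horns and 43.5, 39 and 39.6 in oocyte horns, higher in sows 2 and 3 and lower in sow 1, and its difference of 0.416 (-0.226 to 1.058) was the highest among the brighter members. It was 0.183 without the embryo horn of sow 2 and 0.695 without that of sow 1. UCHL3, a hydrolase that frees ubiquitin from small adducts, averaged 248 ± 11.6 in embryo horns and 229 ± 11 in oocyte horns, a difference of 0.111 (-0.173 to 0.395) and higher in all 3 sows.

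**Figure D5:**
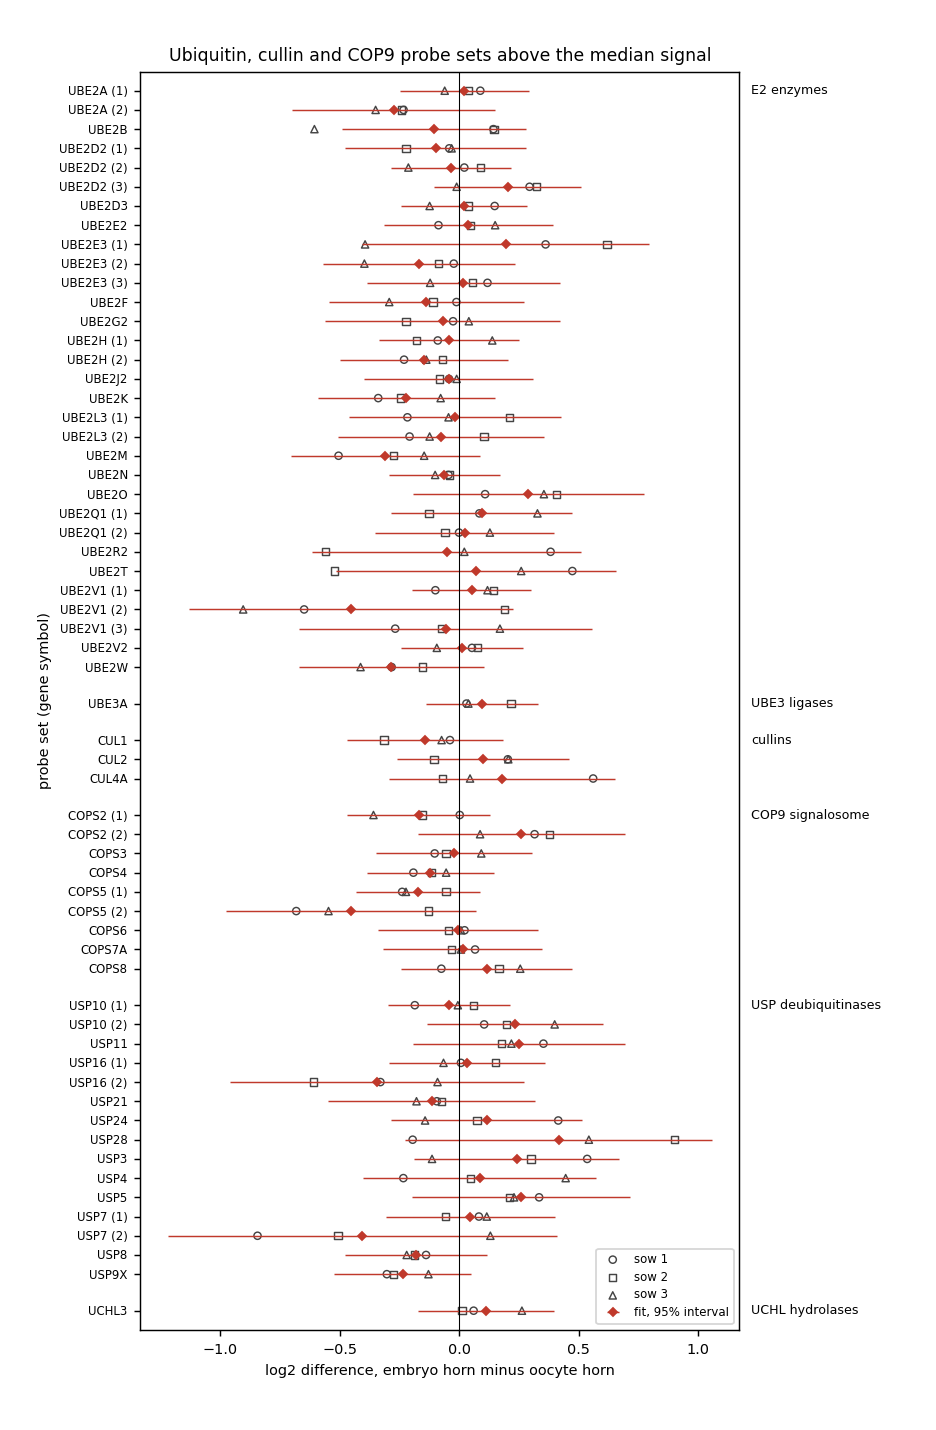
Log2 difference, embryo minus oocyte horn, of the 60 probe sets outside the proteasome with a mean signal above the array's median, ordered by role; open symbols are the 3 sows and red diamonds with lines are the fitted difference and its 95% interval. Probe sets of 1 gene are numbered in the order of their identifiers. USP9X, UBE2M and both COPS5 probe sets have all 3 sows left of 0, and USP5, USP11 and UBE2O have all 3 right of 0. The dimmer COPS5 probe set had been selected for its change on these arrays. Every interval holds 0, in a fit without a sow term. With the sow as a block some leave out 0, such as USP9X (-0.411 to -0.062), UBE2M (-0.59 to -0.028), the dimmer COPS5 (-0.79 to -0.115) and UBE2O (0.039 to 0.54). With that block 0 members passed after adjustment.

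Agreement between probe sets of the same gene was limited. Of the 25 genes with 2 or more probe sets, 17 had differences on both sides of 0. Among the 15 genes with 2 or more probe sets above the array's median, 9 had both signs there and in 7 the differences of the gene's probe sets were more than 0.3 apart on the log2 scale. Examples are COPS2 (-0.17 and 0.26), PSMD11 (-0.514 to 0.042 at those 2 probe sets) and USP7, a protease of the p53 pathway (-0.407 and 0.046). The values given above for UBE2W, UBE2O, CUL4A and USP9X are those of the probe set above the array's median, and the second, dim probe set of each differed by -0.56 for UBE2W, 0.098 for UBE2O, -0.439 for CUL4A and 0.645 for USP9X. A total of 3 member probe sets had been selected for their change on these same arrays in the original study. They are the dimmer probe sets of COPS5 (-0.453) and UBE2H (-0.146) and the dimmest of UBE2D2 (-0.099). They bring no independent evidence of a direction.

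The spread between sows was set beside that between horns, on unlike measures. A sow mean averages both horns, which lowers noise, while a difference between horns adds the noise of both arrays. The values therefore do not show which spread is larger. In 52 of the 101 brighter members (51.5%), the range of the 3 sow means exceeded the largest difference between the horns of a sow, against 56.7% of all brighter probe sets. The median range between sows was 0.253 and the median of the largest difference between horns was 0.217. With the sow as a block, 9 of the 124 probe sets were lower in embryo horns at an unadjusted limma p under 0.05 (background 4.95%) and 3 were higher (background 3.75%), and 0 passed after adjustment (background 0%; smallest adjusted p = 0.272). The 9 were single probe sets of PSMD11, PSMD1, COPS5, UBE2M, UBE2A, UBE2K, UBE3D, USP4 and USP9X, and the 3 were single probe sets of UBE2D2, UBE2O and USP36. Those of UBE3D, USP4 and USP36 lay below the array's median. The probe set of USP4 above the median differed by 0.086. For UBE2A the counted probe set differed by -0.275 and the brighter one by 0.021.

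Genes of the same pathway outside these families were read from lists of ubiquitin precursors, E1 enzymes, NEDD8 and cullin partners, proteasome assembly factors, the p97 segregase and its shuttles, other ligases, other deubiquitinases and the SUMO system. Of 100 listed symbols, which include more than 1 name for some genes, 41 were the single symbol of a probe set in the annotation. Probe sets with no symbol or several were not counted. The 41 had 75 probe sets, of which 64 were above the array's median. The 100 also include a list of 4 regulators of proteasome genes, of which 0 were the single symbol of a probe set. None of the 75 passed after adjustment. At an unadjusted limma p under 0.05, 0 were higher (background 1.3%) and 1 was lower (background 1.59%) in embryo horns. The embryo horn was higher in all 3 sows at 9 (background 14.9%) and lower in all 3 at 19 (background 14.8%), with a median of -0.041. Above the array's median, where 64 of the 75 lay, each background was 16.5%. The 19 are not independent of each other, since SIAH2 is among them with more than 1 probe set. They also include a probe set of FBXO21 (-0.528) that had been selected for its change on these arrays in the original study. The 1 that was lower at an unadjusted limma p under 0.05 was a probe set of SENP6, which removes SUMO. It had 47.3, 37.6 and 43.4 in embryo horns against 64.8, 62 and 73.2 in oocyte horns. Its ranges did not overlap (-0.648, limma adjusted p = 1), but this probe set too had been selected for its change on the same arrays in the original study and is no independent evidence, and the brightest probe set of SENP6 differed by -0.115 with overlapping ranges. SQSTM1, the receptor that takes ubiquitin-marked cargo to autophagy, was higher in the embryo horn of all 3 sows, with 467.5, 588.8 and 494.8 in embryo horns against 413.4, 491.1 and 414.3 in oocyte horns (a difference of 0.229). UBB, a ubiquitin precursor, differed by -0.02, with 7413.7, 6175.2 and 6231.1 in embryo horns against 7219.2, 6768.3 and 6254.3 in oocyte horns.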

How the data were processed

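Scraped uterine epithelium of 3 sows was measured on 6 Affymetrix porcine arrays, 1 per horn. The authors processed the scans with MAS5 (Microarray Suite, version 5.1) and deposited a signal intensity per probe set on a linear scale. The Lowess normalization that the methods describe has not been applied to them, and the original mixed model on single probes was not used. Precision is limited by the number of arrays. Signals below a floor of 0.1 were raised to it, log2 transformed and normalized by cyclic loess, and 124 control probe sets were removed, leaving 23999. The group model without a sow term, as in the methods, was fitted with limma 3.58.1 in R 4.3.3 with a variance trend and Benjamini-Hochberg adjustment at 0.05; the code was tested on simulated data. Plots used matplotlib 3.10.9 in Python 3.11.15. Equal replicate numbers were read as 1 sow, since the submitters compared both horns of each animal; deviations from the group means correlated at 0.207, 0.173 and 0.1 within sows 1, 2 and 3, and the sow was a block in an alternative.

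Symbols are those of the array's annotation; 120 of the 124 member probe sets matched a current gene table, which changed 0 symbols. Genes named were those passing the adjusted threshold, the 8 in each direction with the smallest unadjusted p above the median signal, the first in each direction per role, all probe sets of genes selected in the original study, PSMB5 to PSMB8, PSMB10 and PSME1 to PSME3, and genes whose probe sets moved to opposite sides in all sows; others were named after their values were seen. Members and lists were chosen with earlier results of these data known. No genome build is named with the values, so no coordinates or sequences are given. Other normalizations, floors, filters and arrays left out are compared at the end.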

Additional observations from a re-analysis of the deposited data

How the results depend on the processing

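No member passed an adjusted p under 0.05 in limma under any alternative run. The count of members lower in embryo horns at an unadjusted p under 0.05 (1) became 0 among probe sets above the median signal, 9 with the sow as a replicate block and 1 to 3 when each array was left out in turn; the count of higher ones (0) became 3 with the block and 0 to 2 without single arrays. The members' median of -0.02 became -0.009 under median scaling, 0.007 with the brightest probe set of each gene and -0.037 to -0.01 without single arrays, so its sign rests on which probe set stands for a gene. Probe sets lower in every sow (33) numbered 28 to 37 and those higher in every sow (13) numbered 10 to 13 under other normalizations, floors and the added constant; with 2 sows left they numbered 39 to 51 and 24 to 32, against 25.3 to 28.1% and 25.2 to 28.4% of all probe sets. The 5'/3' control difference of -0.493 ranged from -0.749 to -0.183, smallest without the embryo horn of sow 2 (-0.183) or the oocyte horn of sow 1 (-0.209). Of the other pathway genes, the count lower (1) became 3 with 32 added to each signal, 2 with a floor of 1, 3 without a variance trend, 6 with the replicate block and 1 to 4 without single arrays, 4 without the embryo horn of sow 1; the count higher (0) became 2 with the block.

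Among the named probe sets, signs turned only when single arrays were left out, except that PSMB6 was 6.19e-05 under median scaling. The ranges without single arrays were -0.0196 to 0.126 for PSME1, -0.446 to 0.05 for PSME3, -0.0436 to 0.123 for PSMC5, -0.0197 to 0.364 for CUL4A, -0.107 to 0.0208 for UBE2H (brighter probe set), -0.146 to 0.21 for PSMB10, -0.536 to 0.39 for PSMB8, -0.0823 to 0.126 for PSMD11 (brightest probe set), -0.0802 to 0.016 for PSMB1, -0.00783 to 0.134 for PSMB5, -0.0452 to 0.0596 for PSMB6 and -0.00461 to 0.116 for PSMB7. For UBE2D2 they were -0.217 to 0.0587 (dimmest probe set) and -0.0953 to 0.0151 (brightest). Leaving out a whole sow was added after the data were seen: without sow 1, 2 or 3, 9, 12 or 13 of the 22 19S probe sets were lower and 1, 0 or 3 higher in both remaining sows, and the 20S median was 0.029, -0.001 or 0.033. The cause of these turns was not tested.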

Other observations

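A few probe sets of related genes fell outside the choice by name because the annotation gives them no symbol or several. A second UBE3A probe set, named as such only in the original study and selected there on these arrays, had 51.3, 45.8 and 48.9 in embryo horns against 66.6, 66 and 76 in oocyte horns. Every embryo horn lay below every oocyte horn (log2 difference -0.518, 95% interval -0.935 to -0.101, limma adjusted p = 1), whereas the annotated UBE3A probe set differed by 0.095 in the opposite direction. A PSMD14 probe set selected in the same way had 107.7, 71.4 and 81.1 in embryo horns against 134.3, 87.9 and 100.8 in oocyte horns, lower by a like amount in each sow (-0.337, -0.285 and -0.325) with overlapping ranges. Its direction is therefore no independent evidence. The annotated probe set of PSMD14, the deubiquitinase of the 19S lid, was lower in all 3 sows, most in sow 3 (-0.067, -0.082 and -0.325). Its ranges overlapped and the difference was -0.158 (-0.432 to 0.116).

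USP53, a member of the USP family found at tight junctions, was read by 3 probe sets that carry the symbols USP53 and LRFN5 together. The one selected in the original study had 203.7, 114.3 and 141.1 in embryo horns against 280.2, 185 and 200.3 in oocyte horns (-0.558, -1.128 to 0.011; with the sow as a block -0.779 to -0.338, limma adjusted p = 0.196), a brighter one differed by -0.05 and a dim one by 0.803. UCHL5, a deubiquitinase of the 19S cap, differed by -0.096 and -0.09 at its 2 probe sets, each with overlapping ranges.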
